A study of Mus musculus with 12 samples.

Results

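Major urinary proteins are small secreted carriers of the lipocalin family, which fold into a barrel around a pocket that holds volatile pheromones. Mouse hepatocytes make most of them and they leave the body in urine, where they release odours slowly and mark individual, sex and territory. In liver their genes are known to depend on growth hormone acting through STAT5b, and males make more of them than females. The genes arose by repeated duplication in a single cluster, so that many copies are almost the same in sequence and a short read often cannot be placed on 1 of them.

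The 10 genes described were Mup1, Mup2, Mup3, Mup7, Mup9, Mup10, Mup12, Mup17, Mup20 and Mup21, chosen by gene symbol among the 27022 rows of the count table, of which 33 have a symbol that begins with Mup. They were picked with results of these data in view. Their levels, their differences between diets and between kits, and how far the diet effects of the kits differ are therefore given as a description. The counts of calls are printed beside the share of all genes without further reading. Liver RNA came from 6 female SJL/J mice of 11 weeks, 3 on an AIN-93G control diet with 50 ppm iron and 3 on the same diet with 2% carbonyl iron given from 6 weeks of age. Each RNA was made into 1 whole-transcript library (Trad-KAPA, made with a stranded kit of KAPA) and 1 library of transcript 3′ ends with the Lexogen QuantSeq kit (3’-LEXO), which gave 12 libraries read as single 50-base reads. The iron-loaded mice came from a single cage and the control mice from another, so diet and cage cannot be told apart. As the samples were pieces of whole liver, fewer cells of a type and less RNA per cell cannot be told apart either.

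The libraries held 13834682 to 16553616 counts in the Trad-KAPA control group, 13913526 to 14638924 in the Trad-KAPA iron-loaded group, 13975241 to 14104236 in the 3’-LEXO control group and 10724672 to 13039605 in the 3’-LEXO iron-loaded group. All 14 hepatocyte markers had counts, and their sum was 169418 to 183865 CPM (counts per 1 M counts of the library) on the control diet and 144028 to 186070 CPM on the iron-loaded diet in Trad-KAPA, and 100609 to 113113 CPM and 77175 to 111048 CPM in 3’-LEXO. Hamp, the iron hormone hepcidin, was 214 ± 261 CPM (SD, n = 3) on the control diet and 1141 ± 162 CPM on the iron-loaded diet in Trad-KAPA, with control mouse 1 at 515 CPM and the other control mice at 44.0 and 83.2 CPM. Bmp6, the ligand that reports liver iron, was 3.37 ± 0.49 CPM and 19.0 ± 2.64 CPM in the same groups. Iron-loaded mouse 1 stood apart from its group. Its chi-square of counts, divided by its degrees of freedom, was 49.4 to 59.8 against iron-loaded mice 2 and 3. Those mice gave 5.97 and 5.98 against each other. Pairs of control mice gave 18.5 to 19.9 in Trad-KAPA and 25.8 to 35.9 in 3’-LEXO. All 7 Kupffer cell and macrophage markers had counts, with a summed level of 369 to 591 CPM on the control diet and 666 to 720 CPM on the iron-loaded diet in Trad-KAPA, and of 874 to 1144 CPM and 1150 to 1395 CPM in 3’-LEXO. The sum of the 4 bile duct markers, all with counts, was 6.04 to 6.50 CPM on the control diet and 4.65 to 5.89 CPM on the iron-loaded diet in Trad-KAPA, and 12.3 to 16.2 CPM and 9.82 to 11.5 CPM in 3’-LEXO. The 5 markers of sinusoidal endothelium, all with counts, summed to 278 to 351 CPM and 238 to 260 CPM in 3’-LEXO without overlap, while their Trad-KAPA ranges overlapped (231 to 306 CPM and 260 to 321 CPM). The part of these markers in the results below was not tested.

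All 10 genes lie on the minus strand of chromosome 4 of GRCm38, between 60066469 and 62150863, in a cluster that holds 48 of the 49 annotated Mup genes and pseudogenes. The genes fall into groups by their coding sequence. Mup1, Mup2, Mup7, Mup9, Mup10, Mup12 and Mup17 were 98.7% to 99.6% identical to each other over the coding sequence, a difference of 2 to 7 positions between any pair. Mup20, the male pheromone also called darcin, was 90.1% to 91.0% identical to these 7 genes. Mup21 was 83.7% to 84.6% identical to them, and Mup3 82.2% to 83.1%. Mup18, which is not among the 10 genes, differed from the 7 genes by 3 to 8 positions. One stretch of 50 coding bases, the length of 1 read, shows what this means for counting. It is printed from the GENCODE M21 transcripts, crosses a junction between exons, and has capitals where a gene differs from Mup9. For Mup9 the exonic bases lie within chr4:60420520-60421327, for Mup1 within chr4:60500472-60501290, for Mup20 within chr4:62052669-62053488, for Mup21 within chr4:62149387-62150203 and for Mup3 within chr4:62085992-62086808.
Mup9: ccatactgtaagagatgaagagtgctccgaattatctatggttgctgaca
Mup1: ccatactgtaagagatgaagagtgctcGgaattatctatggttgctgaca
Mup20: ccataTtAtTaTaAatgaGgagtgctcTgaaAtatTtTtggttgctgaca
Mup21: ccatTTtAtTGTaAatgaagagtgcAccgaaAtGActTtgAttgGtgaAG
Mup3: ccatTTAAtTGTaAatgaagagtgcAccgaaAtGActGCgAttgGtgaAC
The Mup9 stretch is also that of Mup7, Mup10, Mup17 and Mup18, and 7 other genes in all hold it letter for letter. The Mup1 stretch is that of Mup2 and Mup12 too and differs from that of Mup9 at 1 position. Mup20 differs at 10, Mup21 at 16 and Mup3 at 18 of the 50 positions, and for Mup3 and Mup21 no other annotated gene holds the stretch. A read of 50 bases from this stretch could therefore be placed on Mup3 or Mup21 alone, but not on any single gene of the near-identical 7.

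The share of all 50-base windows of a gene's annotated transcripts that occur in no transcript of another gene measures how much of the gene a read can identify. It was 86.7% for Mup3, 80.7% for Mup21 and 49.5% for Mup20, and for the 7 near-identical genes it ranged from 13.3% for Mup7 to 38.4% for Mup1. In the last 300 bases of the longest transcript, where 3’-LEXO reads are expected by design, it was 93.6% for Mup3, 91.2% for Mup20, 82.1% for Mup21, 56.6% for Mup17, 25.5% for Mup9 and 17.9% for Mup12. For Mup1, Mup2, Mup7 and Mup10 it was 0% there. The search used exact matches on the reference strain, C57BL/6J, and annotated transcripts, while the mice were SJL/J and the reads were mapped to the genome, so these shares describe the annotation and not the mapping itself.

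**Figure D1:**
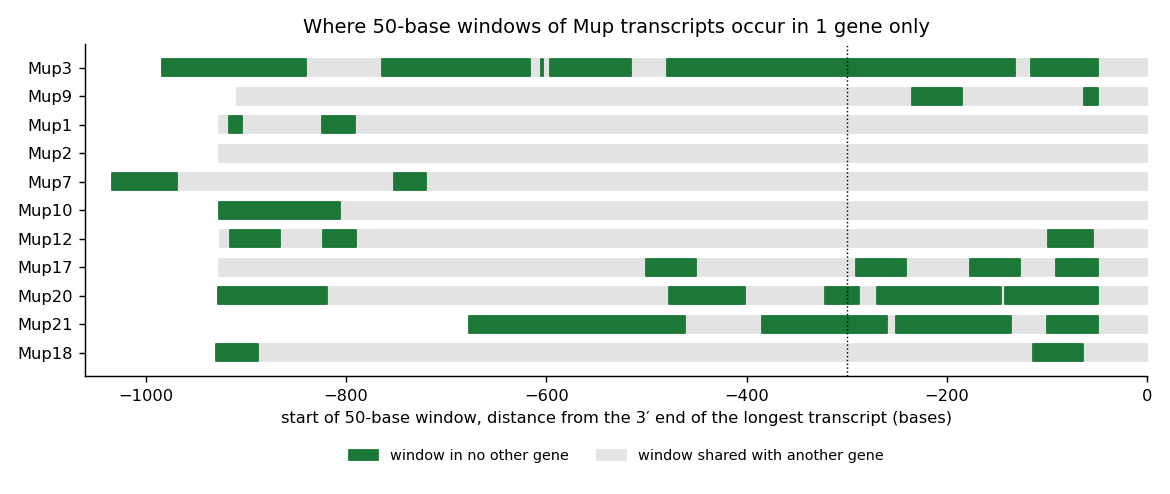
Position of 50-base windows along the longest transcript of each gene, as the distance in bases from the 3′ end (x axis), with windows found in no other gene in green and shared windows in grey. The dotted line marks the last 300 bases, in which Mup3, Mup20 and Mup21 are mostly green and Mup1, Mup2, Mup7 and Mup10 are wholly grey.

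Mup3 held most of the counts placed on Mup rows in every library. The paper describes sampling from reads mapped uniquely to exons, but how the deposited counts treat reads that match several genes is not stated. In iron-loaded mouse 1 it held 98 of the 183 Mup counts with Trad-KAPA and 254 of 501 with 3’-LEXO. In Trad-KAPA it had 13505, 13262 and 17689 counts in the control mice and 98, 374 and 323 counts in the iron-loaded mice. In 3’-LEXO it had 11392, 14572 and 16936 counts in the control mice and 254, 715 and 390 in the iron-loaded mice. All iron-loaded libraries lay far below all control libraries in both kits, and iron-loaded mouse 1 was the lowest in both. The level of Mup3 was 994 ± 249 CPM on the control diet and 18.6 ± 10.1 CPM (SD, n = 3) on the iron-loaded diet with Trad-KAPA, and 1019 ± 194 CPM and 40.5 ± 24.0 CPM with 3’-LEXO. The fitted log2 fold change, iron-loaded over control, was -5.80 ± 0.51 (SE) with Trad-KAPA and -4.71 ± 0.44 with 3’-LEXO. Without iron-loaded mouse 1 it was -5.39 ± 0.26 and -4.36 ± 0.31.

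Mup9 was next in level among the 10 genes in both kits. It had 872, 565 and 868 counts in the control and 12, 8 and 9 counts in the iron-loaded Trad-KAPA libraries. In 3’-LEXO the counts were 1059, 983 and 1357 against 41, 66 and 27. The groups did not overlap in either kit. Its log2 fold change was -6.29 ± 0.29 with Trad-KAPA and -4.44 ± 0.32 with 3’-LEXO, and without iron-loaded mouse 1 it was -6.44 ± 0.35 and -4.28 ± 0.32. Mup9 shares its coding sequence to at least 99.1% with the other near-identical genes, and 20.9% of its windows were found in no other gene.

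Mup1 had 29, 45 and 62 counts in the control and 1, 0 and 1 in the iron-loaded Trad-KAPA libraries. In 3’-LEXO it had 184, 224 and 256 counts against 10, 13 and 4, with a log2 fold change of -4.39 ± 0.33. The iron-loaded Trad-KAPA libraries held only 2 counts in all, and the ratio of control to iron-loaded CPM was 63.9, with an exact 95% counting interval of 17.3 to 533. Mup17 had 30, 24 and 56 counts against 1, 1 and 0 in Trad-KAPA, a ratio of 51.6 (counting interval 14.0 to 432). In 3’-LEXO Mup17 had 30, 44 and 58 counts against 0, 8 and 2, with a log2 fold change of -3.44 ± 0.69. Such intervals cover counting error only, not the spread between mice.

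Mup7, Mup10 and Mup12 were each above the floor of 3 counts in only 1 of the 2 kits. Mup7 had 21, 21 and 22 counts in the control and 1, 0 and 0 in the iron-loaded Trad-KAPA libraries, a ratio of 60.1 with a counting interval of 10.4 to 2411. In 3’-LEXO it had 0, 0 and 1 counts against 0, 1 and 0, at or under the floor, so no fold was computed. Mup10 was the reverse, with 103, 150 and 177 control counts and 2, 11 and 2 iron-loaded counts in 3’-LEXO, a log2 fold change of -4.58 ± 0.50. In Trad-KAPA the same RNA gave Mup10 counts of 1, 2 and 2 against 0, 2 and 1, which were at or under the floor. Mup12 followed Mup10, with 56, 57 and 59 counts against 0, 4 and 3 in 3’-LEXO, a log2 fold change of -4.32 ± 0.54, and 2, 0 and 0 counts against 0, 0 and 0 in Trad-KAPA.

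Mup2 had 57, 39 and 89 counts in the control and 18, 11 and 12 in the iron-loaded Trad-KAPA libraries, with a log2 fold change of -2.18 ± 0.42. In 3’-LEXO its counts were 5, 16 and 30 against 1, 4 and 5, and the groups overlapped in CPM. Mup20 had 23, 21 and 34 counts against 7, 7 and 9 in Trad-KAPA and 32, 33 and 33 against 8, 7 and 9 in 3’-LEXO. The groups of Mup20 did not overlap in either kit, and its log2 fold change was -1.74 ± 0.39 with Trad-KAPA and -1.80 ± 0.33 with 3’-LEXO. Its call at an adjusted p of 0.05 was lost without control mouse 3 in both kits (log2 fold changes of -1.40 and -1.77). Mup21 had 15, 21 and 34 counts against 6, 10 and 9 in Trad-KAPA, with a log2 fold change of -1.48 ± 0.47 that did not pass the test, and 8, 17 and 30 counts against 6, 1 and 5 in 3’-LEXO.

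**Figure D2:**
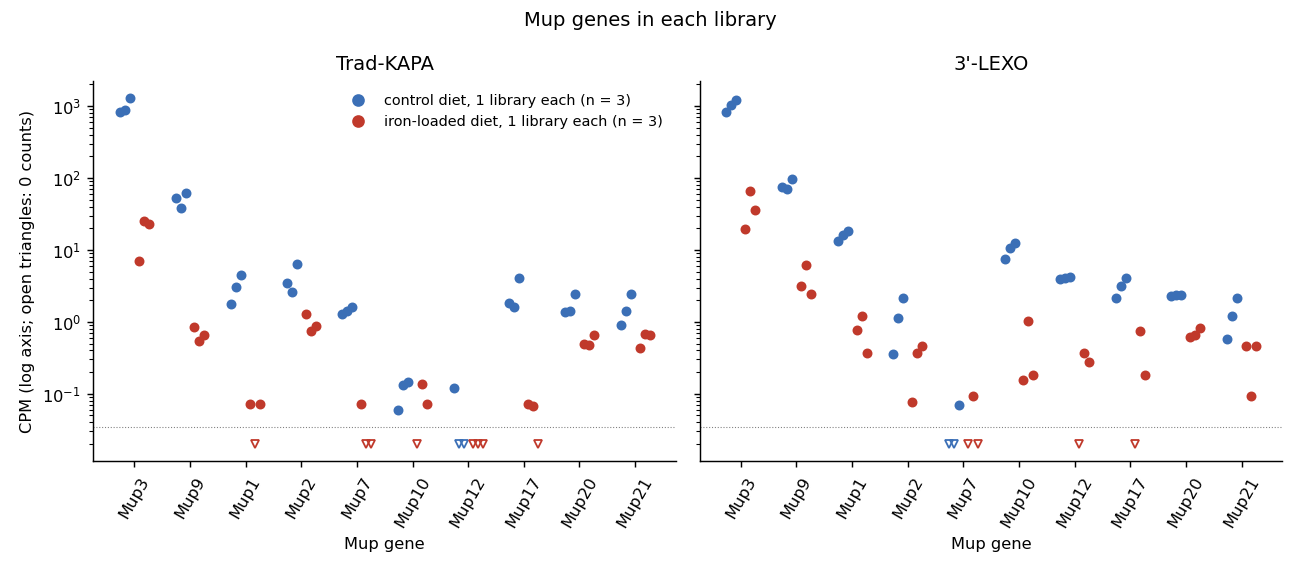
CPM of the 10 genes (y axis, log scale) in each library, Trad-KAPA on the left and 3’-LEXO on the right, with control libraries in blue, iron-loaded libraries in red and libraries with 0 counts as open triangles below the dotted line. Mup3 has the highest points in every group, and Mup7 is near 0 counts in 3’-LEXO while Mup10 and Mup12 are near 0 counts in Trad-KAPA.

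In the edgeR quasi-likelihood test across all genes, 7 of the 10 genes were called lower on the iron-loaded diet in Trad-KAPA (Mup1, Mup2, Mup3, Mup7, Mup9, Mup17 and Mup20). Mup21 was tested and not called, and Mup10 and Mup12 did not pass the filter on low counts. Of all 13151 genes tested in Trad-KAPA, 8.37% were called lower. In 3’-LEXO 7 of the 10 genes were also called lower (Mup1, Mup3, Mup9, Mup10, Mup12, Mup17 and Mup20), and Mup2, Mup7 and Mup21 did not pass the filter, while 2.92% of the 13301 genes tested were called lower. The call of Mup17 in 3’-LEXO was lost without control mouse 2, control mouse 3 or iron-loaded mouse 3, at log2 fold changes of -3.47, -3.16 and -3.23, and that of Mup20 in 3’-LEXO also without control mouse 2 (-1.81). In Trad-KAPA Mup20 was not called without iron-loaded mouse 2 (-1.68) or iron-loaded mouse 3 (-1.90) either. By range alone, every iron-loaded library was below every control library for 8 of the 8 genes above the floor in Trad-KAPA and for 8 of the 9 in 3’-LEXO. Among all rows above the floor this held for 14.6% with Trad-KAPA and 11.4% with 3’-LEXO. As the genes were picked with these diets in view, nothing is read from these counts.

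**Figure D3:**
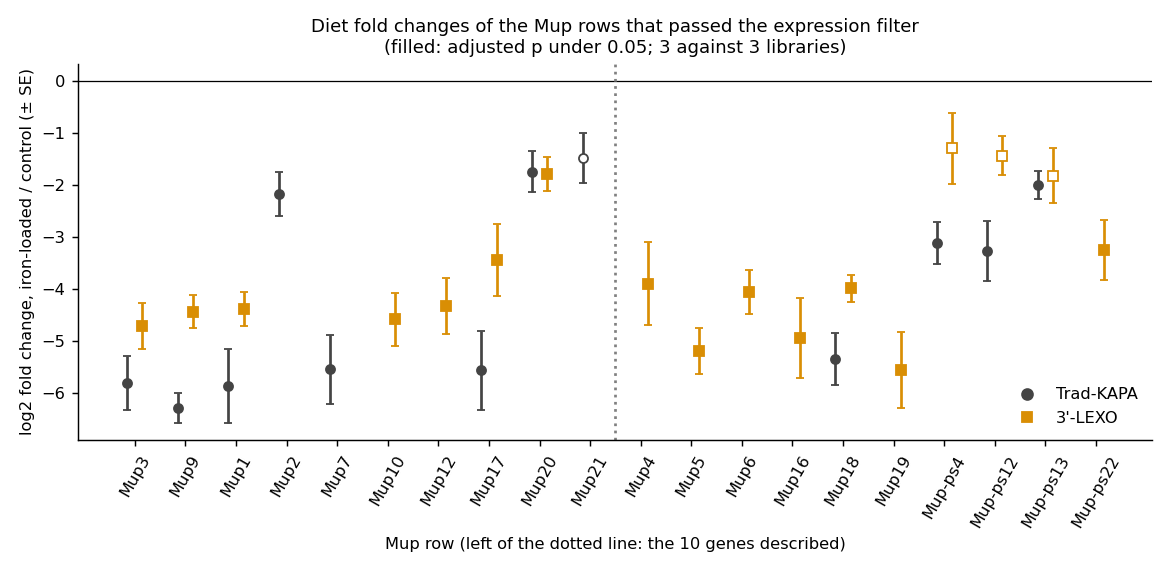
Fitted log2 fold change, iron-loaded over control (y axis, ± SE, 3 against 3 libraries), for each Mup row that passed the filter on low counts, with Trad-KAPA as circles and 3’-LEXO as squares, filled where the adjusted p was under 0.05. Fitted values of Mup1, Mup7 and Mup17 in Trad-KAPA rest on 1 or 2 iron-loaded counts in all and are no bounds. Mup2, Mup20 and Mup21 lie nearest to 0 among the 10 genes.

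A sum over the 10 genes does not depend on how reads were split between them. Reads placed on other Mup rows or not counted are missing from it. The sum was 879, 938 and 1363 CPM in the control and 10.3, 28.2 and 26.2 CPM in the iron-loaded Trad-KAPA libraries. In 3’-LEXO it was 920, 1152 and 1343 CPM against 24.7, 77.4 and 40.6 CPM. The iron-loaded mice thus had 2.07% of the control level with Trad-KAPA and 4.04% with 3’-LEXO, and iron-loaded mouse 1 was again the lowest. The log2 fold change of the sum was -5.68 ± 0.44 with Trad-KAPA and -4.63 ± 0.42 with 3’-LEXO. With all 33 Mup rows summed it was -5.59 ± 0.39 and -4.48 ± 0.37. The sum of the 9 genes other than Mup3 was 65.7 ± 17.6 CPM on the control diet and 2.97 ± 0.31 CPM on the iron-loaded diet in Trad-KAPA, so the lower level was not that of Mup3 alone. Within the sum, Mup3 took 93.8% ± 0.97 (SD, n = 3) of the counts of the control and 82.4% ± 12.5 of the iron-loaded Trad-KAPA libraries, and 89.5% ± 1.01 and 84.1% ± 4.55 in 3’-LEXO.

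For comparison between genes, Trad-KAPA levels were divided by the merged exon length, since longer transcripts give more reads. This length joins the exons of all annotated transcripts. It was 1584 bases for Mup1, whose longest transcript has 927, while for Mup17 both were 927. The order of genes with close values may therefore depend on the choice of length. On this scale Mup3 was at 931 ± 233 CPM per kb (SD, n = 3) on the control diet and Mup9 at 34.1 ± 8.36 CPM per kb, and their ranges did not overlap with each other or with those of the other genes. Below them came Mup2 at 3.12 ± 1.50, Mup17 at 2.69 ± 1.46, Mup21 at 2.35 ± 1.17, Mup1 at 1.95 ± 0.86, Mup20 at 1.89 ± 0.66 and Mup7 at 1.38 ± 0.16 CPM per kb, and each of these neighbours in the order overlapped with the next. Mup10 and Mup12 were at most at 0.130 CPM per kb in every control library of Trad-KAPA. The counts were also divided by the number of windows found in no other gene, although how reads that match several genes were counted is not stated, and Mup19, with 0% of such windows, still had 7 control counts in Trad-KAPA and 73 in 3’-LEXO. This gave 46.0 control counts per such window for Mup3, 6.88 for Mup9, 0.66 for Mup2 and 0.57 for Mup17, down to 0.016 for Mup10 and Mup12. Mup3 therefore remained the highest of the 10 genes on both scales.

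The 2 kits, which started from the same RNA, divided the reads of the near-identical genes differently. For the control mice, the ratio of 3’-LEXO to Trad-KAPA CPM was 1.04 for Mup3 (exact 95% counting interval 1.03 to 1.05), 1.29 for Mup17 (0.996 to 1.68), 1.35 for Mup20 (0.995 to 1.85) and 0.846 for Mup21 (0.583 to 1.22). It was 1.59 for Mup9 and 5.26 for Mup1, whereas it was 92.6 for Mup10 (39.4 to 287) and 92.6 for Mup12 (25.3 to 771). In the other direction it was 0.297 for Mup2 and 0.0168 for Mup7, on 1 count in 3’-LEXO. Among the 10 genes, Mup3, Mup17, Mup20 and Mup21 had ratios near 1 and 56.6% to 93.6% of windows of their own in the last 300 bases. Mup rows outside the 10 genes had as much sequence of their own there and ratios far from 1, with 9.69 for Mup6 (100% of windows), 10.2 for Mup4 (74.1%), 6.90 for Mup5 (64.5%) and 33.0 for Mup-ps22 (92.8%). Mup1 and Mup10, with 0% there, had 664 and 430 counts in the 3’-LEXO control libraries, and Mup2 and Mup7, also with 0%, had 51 and 1. That 0% covers the end of the longest transcript only, and other annotated 3′ ends were not examined. Over all annotated transcripts the share was 38.4% for Mup1, 23.5% for Mup10, 21.8% for Mup2 and 13.3% for Mup7. The sum of the 10 genes had a ratio of 1.09 (1.07 to 1.10), and the ratio of all Mup rows was 1.26. These intervals cover counting error only, not the spread between mice. Single control mice gave ratios of 0.998, 1.17 and 0.939 for Mup3 and of 1.05, 1.23 and 0.985 for the sum of the 10 genes.

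**Figure D4:**
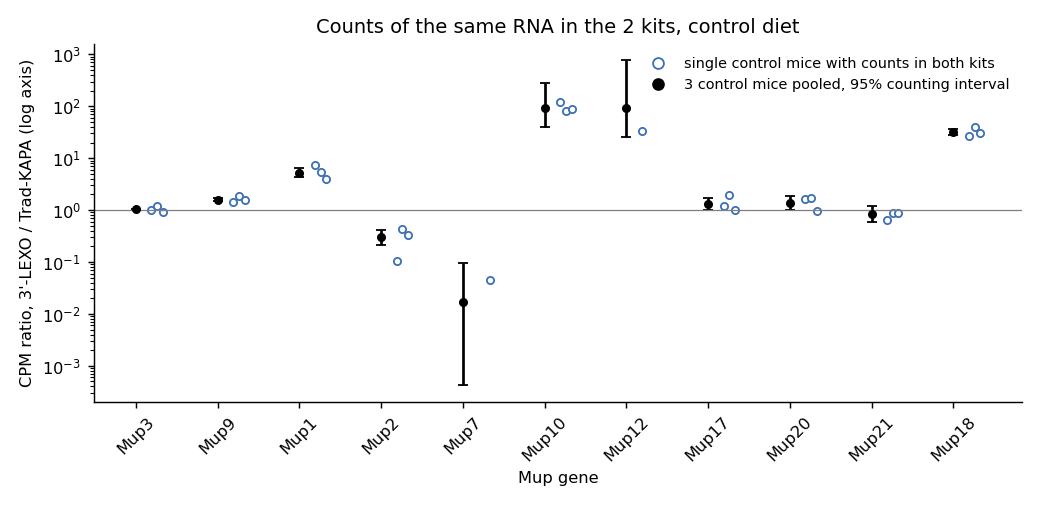
Ratio of 3’-LEXO to Trad-KAPA CPM (y axis, log scale) in the control mice for the 10 genes and Mup18, with the pooled value and its 95% counting interval in black and single mice with counts in both kits as open circles. Mup3, Mup17, Mup20 and Mup21 lie near 1, Mup10, Mup12 and Mup18 lie above 10, and Mup7 lies below 0.1.

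In the edgeR fit of kit adjusted for diet, Mup1, Mup9, Mup10 and Mup12 were called higher and Mup2 and Mup7 lower in 3’-LEXO, with log2 differences of 2.49 ± 0.31, 1.12 ± 0.29, 5.65 ± 0.58, 6.11 ± 0.59, -1.75 ± 0.41 and -4.41 ± 0.75. The fitted values of Mup10 and Mup12, at the floor in Trad-KAPA, and of Mup7, at the floor in 3’-LEXO, depend on a few counts and are no bounds. The log2 differences of Mup3 (0.55 ± 0.34), Mup17 (0.60 ± 0.48), Mup20 (0.39 ± 0.23) and Mup21 (-0.43 ± 0.40) did not pass the test. Of all 14384 genes tested, 77% differed between the kits, so 6 of 10 is no larger a share than that of other genes. With the mouse as a block Mup3 passed as well, with 0.49 ± 0.15 and an adjusted p of 0.00715. This value of Mup3 is an average over diets whose ratios differed, as given below.

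Mup18 is the row outside the 10 genes that held the most counts in 3’-LEXO. It had 108, 82 and 73 counts in the control Trad-KAPA libraries and 2444, 3022 and 2269 in the control 3’-LEXO libraries, a CPM ratio of 31.7 (28.0 to 36.0). It took 0.561% ± 0.173 of all Mup counts in the control Trad-KAPA libraries and 13.9% ± 2.96 in 3’-LEXO. On the iron-loaded diet it had 5, 0 and 1 counts with Trad-KAPA and 129, 186 and 98 with 3’-LEXO, with log2 fold changes of -5.34 ± 0.51 and -3.99 ± 0.27. Of the 23 Mup rows outside the 10 genes, 4 passed the filter in Trad-KAPA and all 4 were called lower (Mup18, Mup-ps4, Mup-ps12 and Mup-ps13). In 3’-LEXO 10 passed and 7 were called lower (Mup4, Mup5, Mup6, Mup16, Mup18, Mup19 and Mup-ps22). The other 3 were Mup-ps4 at -1.30 ± 0.68, Mup-ps12 at -1.43 ± 0.37 and Mup-ps13 at -1.82 ± 0.53. Of all genes tested, 8.37% were called lower in Trad-KAPA and 2.92% in 3’-LEXO.

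**Figure D5:**
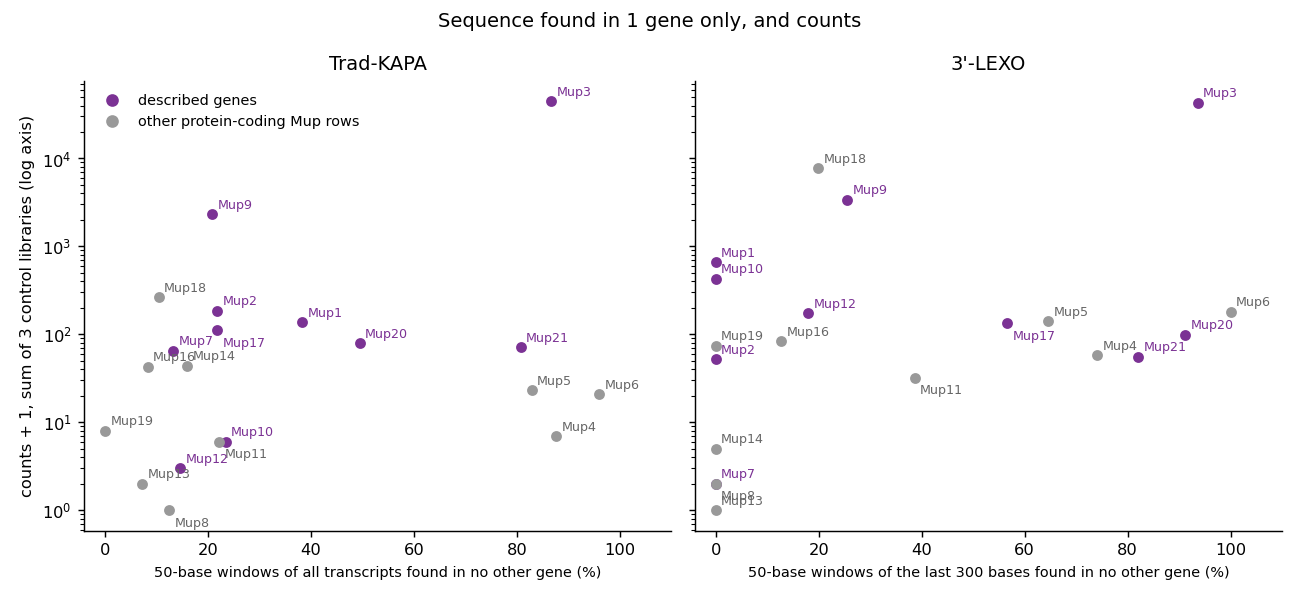
Share of 50-base windows found in no other gene (x axis, percent; all transcripts for Trad-KAPA, last 300 bases for 3’-LEXO) and summed counts of the 3 control libraries plus 1 (y axis, log scale) for the 20 protein-coding Mup rows. Mup3 is high on both axes, but Mup4, Mup5, Mup6 and Mup21 have few counts at shares over 60%, and Mup1 and Mup10 have 664 and 430 counts in 3’-LEXO at 0%.

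Across the 20 protein-coding Mup rows the number of windows of their own and the control counts had a Spearman rho of 0.301 in Trad-KAPA. For the number of such windows in the last 300 bases and 3’-LEXO it was 0.410. Both are given as a description because the rows share libraries and sequence. Mup4, Mup5 and Mup6 had high shares and 57, 141 and 180 control counts in 3’-LEXO. How far the counts of a row follow its own sequence or the level of its transcript was not tested.

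The difference of the iron-loaded from the control level was smaller in 3’-LEXO than in Trad-KAPA for Mup3 and Mup9. In the iron-loaded mice the ratio of 3’-LEXO to Trad-KAPA CPM of Mup3 was 2.78, 2.61 and 1.53, while in the control mice it was 0.998, 1.17 and 0.939. For Mup9 it was 3.67, 11.3 and 3.79 against 1.44, 1.86 and 1.53. The ratios of the diets did not overlap for either gene. In the edgeR interaction test over 12 libraries without the mouse, 0% of the 14384 genes tested were called (0 genes, with 402 at an unadjusted p under 0.05, and 0 by DESeq2). There the interaction was 1.09 ± 0.64 for Mup3 and 1.85 ± 0.50 for Mup9. With the mouse as a block, since both kits used the RNA of the same mouse, 5 genes were called, among them Mup3 (1.09 ± 0.17, adjusted p = 0.0294) and Mup9 (1.82 ± 0.31, adjusted p = 0.0431). Both values are a description only, since the genes were picked with results of these data in view. The remaining calls were Slco1a1 (2.47 ± 0.43, adjusted p = 0.0463), Serpina1e (0.92 ± 0.14, adjusted p = 0.0294) and Abcc4 (-1.39 ± 0.22, adjusted p = 0.0294). Slco1a1 fell in both kits, so a smaller fall in 3’-LEXO was not particular to Mup genes. For the 8 described Mup genes other than Mup3 and Mup9 the interaction did not pass the test in either fit.

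As the genes were low together, the sequence upstream of their starts was compared. The RefSeq promoter table for GRCm38.p6 held 7 of the 10 genes (Mup2, Mup3, Mup7, Mup9, Mup10, Mup17 and Mup21). Over the 250 upstream bases Mup2, Mup9, Mup10 and Mup17 were 90.2% to 95.3% identical, Mup3 and Mup21 were 89.1% identical to each other, and Mup3 and Mup9 were 56.0% identical. The last 100 bases before the RefSeq start are printed 5′ to 3′ on the minus strand for 3 genes, with TATATAA in capitals. They are Mup9 at chr4:60421953-60422052, Mup3 at chr4:62087318-62087417 and Mup21 at chr4:62150842-62150941. In GENCODE M21 the Mup3 gene starts at 62087342 and the Mup21 gene at 62150863, upstream of TATATAA. The capitals of Mup3 and Mup21 thus lie inside the GENCODE genes and only upstream of the RefSeq starts.
Mup9: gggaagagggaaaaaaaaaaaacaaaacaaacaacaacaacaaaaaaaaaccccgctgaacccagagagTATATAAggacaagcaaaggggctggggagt
Mup3: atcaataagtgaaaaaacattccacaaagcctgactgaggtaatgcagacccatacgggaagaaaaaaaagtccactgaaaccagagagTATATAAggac
Mup21: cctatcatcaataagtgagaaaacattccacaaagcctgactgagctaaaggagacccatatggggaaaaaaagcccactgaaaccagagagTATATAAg
TATATAA was chosen after these sequences were seen and searched on both strands of the 250 bases before the RefSeq start. It was found there in 6 of the 7 genes, all but Mup7, and in 3.04% of all 32851 promoters. As the letters were taken from these sequences, several of them near copies of each other, nothing is read from these shares. The paired half-site TTCNNNGAA, the letters that STAT5 is known to bind, was found in 0 of the 7 and in 7.02% of all promoters, and TATAAA in 0 of the 7 and in 12.4%. No match says only that these letters are not in this window. Over the 250 bases Mup7 was 41.8% to 49.3% identical to the other 6 genes. The last bases of its window resemble the first bases of the Mup3 stretch printed above. Its window may therefore stop upstream of the place where the other genes hold TATATAA. Whether Mup7 holds it further downstream was not searched.

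Genes around the growth hormone and STAT5 signal, and liver transcription factors, were mostly not called. Of 24 such genes, all tested, 5 were called lower and 1 higher in Trad-KAPA, and 3 lower and 0 higher in 3’-LEXO, beside 17.1% and 6.1% of all genes called in either direction. The list's median log2 fold change was -0.25 with Trad-KAPA and -0.27 with 3’-LEXO, while that of all genes was 0.02 and 0.01. Stat5a, a signal transducer next to Stat5b, fell in both kits, by 1.01 ± 0.13 and 1.04 ± 0.20 on the log2 scale (edgeR adjusted p = 0.00402 and 0.0202). Stat5b, the main transducer of growth hormone in liver, fell in Trad-KAPA by 0.76 ± 0.14, and its log2 fold change was -0.63 ± 0.28 in 3’-LEXO, where it was not called. Igfbp3, a carrier of insulin-like growth factors, fell by 0.93 ± 0.14 in Trad-KAPA, and Foxa1, a pioneer factor of liver, fell by 0.97 ± 0.21 in 3’-LEXO.

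Zhx2, known to govern the level of Mup genes in liver, fell by 0.79 ± 0.15 in Trad-KAPA and was at -0.38 ± 0.27 in 3’-LEXO, where it was not called. The growth hormone receptor Ghr had log2 fold changes of -0.65 ± 0.29 and -0.82 ± 0.22, its feedback inhibitor Socs2 1.07 ± 0.46 and 0.77 ± 0.40, and its hormone target Igf1 -0.29 ± 0.31 and -0.47 ± 0.30. The repressor Bcl6 was at -1.25 ± 0.40 and -1.19 ± 0.48, Cux2, a factor found more in female liver, at 0.14 ± 0.49 and 0.09 ± 0.40, and Hnf4a, the hepatocyte factor, at 0.03 ± 0.13 and 0.15 ± 0.16. None of Ghr, Socs2, Igf1, Bcl6, Cux2 and Hnf4a was called in either kit.

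Other genes known to be higher in male liver moved in both directions. Of 9 tested of the 12 listed, 5 were called lower and 2 higher in Trad-KAPA, and 3 lower and 2 higher in 3’-LEXO, beside the 17.1% and 6.1% of all genes called in either direction. Slco1a1, an uptake transporter of organic anions, had 423, 945 and 1002 counts in the control and 1, 5 and 6 in the iron-loaded Trad-KAPA libraries, and fell by 7.61 ± 0.61 on the log2 scale there, and it fell by 5.14 ± 0.43 in 3’-LEXO (edgeR adjusted p = 8.18e-04 and 6.37e-04). Susd4, an inhibitor of complement, fell by 2.60 ± 0.47 and 2.57 ± 0.40. The 2 genes called higher in both kits, named after their values were seen, were Gstp1, a glutathione transferase, which rose by 1.44 ± 0.14 and 2.16 ± 0.36, and Serpina1e, an antitrypsin, which rose by 0.85 ± 0.20 and 1.77 ± 0.29. Of 17 genes known to be higher in female liver, 17 were tested in Trad-KAPA with 6 called lower and 1 higher, and 15 in 3’-LEXO with 2 lower and 1 higher. Among these genes Cyp2b13, a cytochrome P450, fell by 1.39 ± 0.27 and 1.54 ± 0.31.

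Other lipocalins also moved in both directions. Of 9 tested of the 14 listed, 3 were called lower and 1 higher in Trad-KAPA, and 1 lower and 1 higher in 3’-LEXO. The share of all genes called in either direction was 17.1% and 6.1%. Lcn2, which binds the iron carriers of bacteria, rose by 1.58 ± 0.28 with Trad-KAPA and 1.24 ± 0.23 with 3’-LEXO (edgeR adjusted p = 0.0103 and 0.0169). Orm3, an orosomucoid, fell by 2.19 ± 0.42 and 1.96 ± 0.29. Rbp4, the carrier of retinol, was at 0.44 ± 0.29 and 0.49 ± 0.30 and was not called in either kit.

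Among 9309 genes with at least 50 counts on average in each kit, the pattern over the 6 mice most like the summed level of the 10 genes was that of Gas1, Dio1, Tjp3, Cited2 and Fxyd1. Their mean Pearson's r over both kits was 0.994, 0.994, 0.991, 0.990 and 0.990, given as a description over mice that share diet and cage. Dio1, the deiodinase that activates thyroid hormone, had 52.8, 59.3 and 57.8 CPM in the control and 5.07, 11.3 and 11.2 CPM in the iron-loaded Trad-KAPA libraries. Gas1, a growth arrest protein, was at 39.8 ± 5.62 CPM and 4.27 ± 1.28 CPM, with log2 fold changes of -3.28 ± 0.24 with Trad-KAPA and -3.10 ± 0.29 with 3’-LEXO.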

How the data were processed

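Reads were mapped by the authors with STAR (2.5.3a) on GRCm38, and the deposited table holds raw counts per gene, listed by Ensembl identifier, without normalization. Their paper describes sampling from reads mapped uniquely to exons. The counting program, strand setting and annotation release are not given in the sources used here. Replicate samples were separate mice, and libraries of both kits with the same number came from 1 mouse, and their deviations from the group means were correlated (r from 0.444 to 0.770 over 10326 genes).

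Symbols were taken from GENCODE M21 (26940 of 27022 identifiers matched). The 10 genes, the lists and the rule for named genes (all Mup rows, the largest called changes of each list, single genes and the 5 most alike) were chosen with earlier results of these data known. For 1 gene that the rule names, the values are not reported here. Counts were tested with edgeR 4.0.16 in R 4.3.3 (quasi-likelihood F test after TMM and filterByExpr), with Benjamini-Hochberg adjustment over all genes at 0.05, within each kit, for the interaction and for the kit. A group with at most 3 counts in each library was at the floor, and a gene with 1 to 3 iron-loaded counts in all was given as a ratio with a 95% counting interval. The fits were tested on simulated data. Likeness used log2(CPM + 1). DESeq2 1.42.0 and other settings were alternatives.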

Additional observations from a re-analysis of the deposited data

Results flagged for a closer look

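With the mouse as a block, the effect of the diet differed between the kits for Mup3 by 1.09 and for Mup9 by 1.82 on the log2 scale, with the fall smaller in 3’-LEXO. Both were flagged because a test of the difference itself passed the threshold. The genes were picked with results of these data in view, so both are given as a description. Without the mouse as a block and with the filter on low counts neither passed, while with no filter and no block both did (1.09 and 1.84).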

How the results depend on the processing

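The number of genes called for the diet in Trad-KAPA was 2255 and ranged from 841 (without control mouse 2) to 2803 when 1 mouse was left out, and leaving out any mouse but iron-loaded mouse 1 lowered it by over 1.5 times. In 3’-LEXO it was 811 and ranged from 199 (without control mouse 3) to 871, lower by over 1.5 times without any control mouse or iron-loaded mouse 3, and it was 1313 with DESeq2, 2040 with no filter and 436 with the replicate number as a block. In Trad-KAPA the block gave 1922. Within a kit the numbers pair no mice (r from -0.168 to 0.100 between diets, with 5 of 12 libraries most like their own number). The interaction had 7 calls with no filter and 5 with the mouse as a block, each including 2 of the 10 genes, Mup3 and Mup9. Of the 10 genes, 7 were called in each kit, 6 to 7 in Trad-KAPA and 5 to 7 in 3’-LEXO when 1 mouse was left out. The number of list genes called was 24 in Trad-KAPA (12 to 28 without 1 mouse) and 13 in 3’-LEXO (3 to 17), and in 3’-LEXO it was 21 with DESeq2 and 33 with no filter. No fold change of the 10 genes changed its direction and passed a test under any setting. Mup21 was called in Trad-KAPA only with no filter. With the mouse as a block, no call among the 10 genes other than those of Mup3 and Mup9 changed in the fits over both kits. Spearman's rho in place of Pearson's r put Gas1, Dio1, Tjp3 and Cited2 at rank 43 and Fxyd1 at rank 207. The search of windows in the genome was not run. Low counts limit Mup2, Mup7, Mup20 and Mup21, and the lost calls without 1 mouse also have fewer samples.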
